A study of Rattus norvegicus with 119 samples.

Results

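The myogenic regulatory factors Myod1, Myf5 and Myog and the muscle acetylcholine receptor gene Chrna1 were followed through 3 assays of the neonatal female rat urogenital tract. Myog (ENSRNOG00000030743) and Chrna1 (ENSRNOG00000018286) were taken by their Ensembl IDs, and the IDs of Myod1 (ENSRNOG00000011306) and Myf5 (ENSRNOG00000004768) came from the gene symbols in the study's table of differentially expressed (DE) transcripts. These are 4 of the 32662 genes in the count tables. All 4 IDs stand in that table, which was made from these same libraries. A bulk call of a member and its direction are therefore not independent evidence. On Rnor_6.0, the study's annotation places Myod1 at chr1:102396538-102399248, Myf5 at chr7:49729533-49732764, Myog at chr13:51126459-51129048 and Chrna1 at chr3:60445666-60460724.

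The study set the ventral mesenchymal pad (VMP), a mesenchyme that induces prostatic growth, against the adjacent urethra (SU), which holds smooth muscle, stroma and urethral epithelium. Both tissues were microdissected from female Wistar rats on postnatal day 0, from pooled animals. Tag-seq was run on the tissue itself, whereas RNA-seq and its single-cell form (scRNA-seq) used cells freed with collagenase and strained, a step that kept much of the epithelium out of the SU suspension. Each tissue gave 1 Tag-seq library, 1 RNA-seq library and 1 pool of single cells, of which 49 VMP and 66 SU cells are labelled. The protocol text in the labels gives 52 VMP and 63 SU libraries, the same sum of 115, so the tissue label of some cells may be in doubt, and each share of cells below rests on the labels as given.

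Skeletal muscle cells are specified by basic helix-loop-helix factors that bind the E-box, a short DNA motif, together with E-protein partners. Myf5 and Myod1 commit progenitors to the myogenic lineage and mark proliferating myoblasts, while Myog drives their differentiation. Chrna1 encodes the alpha subunit of the muscle nicotinic acetylcholine receptor and is a known target of these factors, switched on as myoblasts differentiate and fuse. In the urethra, striated fibres form the external sphincter around the smooth muscle.

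Because the regulators act through E-boxes, the 250 bases before the transcription start are shown for the members that the RefSeq promoter table holds (3 of 4, build GRCr8). Myod1 has no entry. Capitals mark every match to CANNTG, which reads as an E-box on both strands. The windows lie at chr3:78877354-78877603 (minus strand, Chrna1), chr13:48297226-48297475 (plus strand, Myog) and chr7:44692639-44692888 (minus strand, Myf5), each printed 5′ to 3′ on the strand of its gene.
Chrna1: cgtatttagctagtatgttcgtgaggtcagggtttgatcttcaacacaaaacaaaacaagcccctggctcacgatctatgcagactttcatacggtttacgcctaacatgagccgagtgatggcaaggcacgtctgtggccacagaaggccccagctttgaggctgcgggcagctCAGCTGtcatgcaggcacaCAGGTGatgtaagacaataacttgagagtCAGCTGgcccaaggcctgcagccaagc
Myog: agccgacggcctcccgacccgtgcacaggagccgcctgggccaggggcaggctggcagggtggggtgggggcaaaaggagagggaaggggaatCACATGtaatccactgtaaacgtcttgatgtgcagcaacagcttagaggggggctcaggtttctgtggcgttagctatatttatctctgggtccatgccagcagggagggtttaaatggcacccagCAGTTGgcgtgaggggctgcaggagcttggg
Myf5: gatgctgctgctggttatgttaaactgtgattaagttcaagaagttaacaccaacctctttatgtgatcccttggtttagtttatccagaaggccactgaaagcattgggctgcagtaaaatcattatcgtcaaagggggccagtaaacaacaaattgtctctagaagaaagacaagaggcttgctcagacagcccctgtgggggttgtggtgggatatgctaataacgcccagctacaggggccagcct
The Chrna1 window held 3 matches, beginning 75, 56 and 27 bases before the start, and 2 of them read CAGCTG, a palindromic form contained in CANNTG. The Myog window held 2 matches, at 157 and 31 bases, and the Myf5 window held 0. Of 33469 rat promoter windows of the same length, 65.5% held at least 1 CANNTG and 30.8% at least 2, whereas 11.97% held a CAGCTG and 1.04% held 2 or more. TATAAA and the MEF2 consensus YTAWWWWTAR were searched on both strands without mismatches. They were found in 12.9% and 2.96% of all windows and in none of these 3. Near matches were not counted, such as ctatatttat in the Myog window, which departs from the MEF2 pattern only at its last base. The lack of an exact match therefore does not show that such a site is absent. A match describes letters and not a site of binding, and no binding was measured.

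In the intact tissue, Myog was the most abundant member in both tissues and Chrna1 had the largest difference between them. The Tag-seq libraries held 7870450 counts in VMP and 8215177 in SU, and the unit here is the number of reads per gene, or that number scaled to the counts on genes (CPM). A tag is read at a restriction site of the transcript, so Tag-seq counts of different genes are compared without length. Log2 ratios are VMP over SU after TMM scaling, a trimmed mean over genes, and all intervals are 95% intervals that cover counting error only. A transcript was called DE when its NOISeq-type q, which ranks its change against simulated noise and is no p-value, was at least 0.9. With 1 library per tissue, no p-value exists within an assay, and each call compares libraries rather than tissues.

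Myod1 had 77 counts in VMP (9.78 CPM) and 421 in SU (51.2 CPM), a log2 ratio of -2.49 (-2.87 to -2.15). Myf5 had 100 counts (12.7 CPM) and 108 (13.1 CPM), a ratio of -0.16 whose interval of -0.57 to 0.25 spans 0, and its q of 0.323 lay under the threshold. Among the 3 regulators, Myf5 was thus the one at nearly equal Tag-seq level in both tissues. Myog had 484 counts (61.5 CPM) in VMP and 1487 (181 CPM) in SU, with a ratio of -1.67 (-1.82 to -1.52). Chrna1 had 15 counts (1.91 CPM) in VMP and 194 (23.6 CPM) in SU, with a ratio of -3.70 (-4.61 to -2.98), a 13.4-fold higher level in SU. Myod1, Myog and Chrna1 were called higher in SU, 3 of 4 members, where 13.2% of all 12191 transcripts tested were called in that direction. Among the 2658 tested IDs with a symbol in the study's DE tables, where the members stand, the share was 44.6%. At q of at least 0.95, Myog with a q of 0.947 was not called, which left 2 of 4 beside 7.64% of all transcripts.

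In RNA-seq of the dissociated cells, all 4 members were called higher in SU, and the VMP library held few or no reads of them. The libraries held 4397699 counts in VMP and 7007767 in SU. Myod1 had 0 counts in VMP and 68 in SU (9.70 CPM), at least 16.4-fold lower in VMP against a floor of 3 counts in that library. Myf5 had 0 counts in VMP and 260 in SU (37.1 CPM), at least 62.8-fold lower in VMP. The floor of 3 counts equals 0.682 CPM in VMP. The upper bound of the 95% Poisson interval of 0 counts is 0.839 CPM, and by the interval of the ratio the log2 ratio lies at or under -3.70 for Myod1 and -5.66 for Myf5, somewhat smaller differences than those folds. Myog had 20 counts (4.55 CPM) in VMP and 1172 (167 CPM) in SU, with a log2 ratio of -5.37 (-6.13 to -4.77). Chrna1 had 10 counts (2.27 CPM) in VMP and 295 (42.1 CPM) in SU, with a ratio of -4.35 (-5.49 to -3.52). The 4 of 4 members called higher in SU stand beside 12% of the 17527 transcripts tested, or 6.39% at q of at least 0.95, where all 4 were still called. For the 2812 tested IDs with a symbol in the study's DE tables, the share at q of at least 0.9 was 30.2%.

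**Figure D1:**
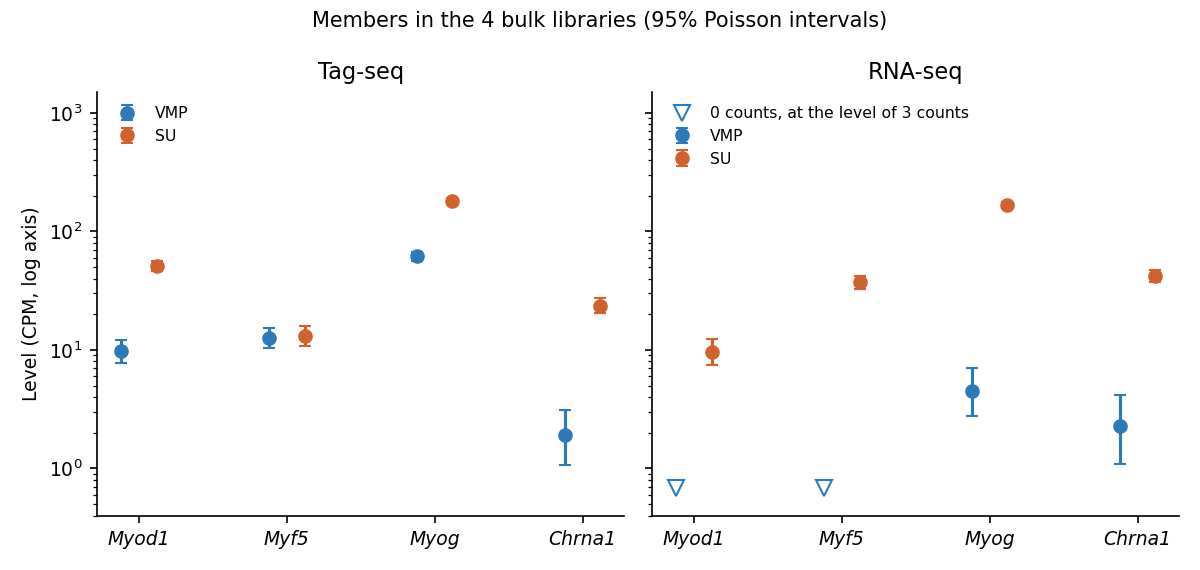
Level of the members in the 4 bulk libraries in CPM on a log axis, with Tag-seq of tissue on the left and RNA-seq of dissociated cells on the right; points are single libraries and bars are 95% Poisson intervals. Myf5 sits at 12.7 and 13.1 CPM in Tag-seq but at 0 and 37.1 CPM in RNA-seq, and open triangles mark 0 counts at the level of 3 counts.

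Myod1, Myog and Chrna1 were called in both assays and Myf5 in RNA-seq alone, beside 3.18% of the 11273 transcripts tested in both that were called higher in SU in each. The members stand in the study's DE tables, and the share among such IDs was not computed for both assays together. When the 4 bulk libraries were fitted together with the assay as a block, edgeR's quasi-likelihood test gave Benjamini-Hochberg adjusted p-values of 0.00309 for Myod1, 0.196 for Myf5, 0.000188 for Myog and 0.000486 for Chrna1. DESeq2 gave 0.0895, 0.467, 0.0201 and 0.00380, so that Myod1 passed 0.05 in the first fit and not in the second. Higher in SU at an adjusted p under 0.05 were 1.3% of 18445 genes by edgeR and 1.55% of the 9147 genes with an adjusted p by DESeq2. The error term of these fits measures how far the difference between VMP and SU disagrees between the assays, and not how far animals differ. In a bulk library, fewer muscle cells and less RNA per cell cannot be told apart.

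Other cell types moved with the same contrast. Of 7 epithelial markers, 6 had an ID, and their summed level was 397 CPM in VMP and 7510 in SU by Tag-seq, and 7.05 and 146 CPM by RNA-seq, with all 6 called higher in SU by Tag-seq and 5 by RNA-seq. The 5 mesenchymal markers, Col1a1 among them, summed to 45126 CPM in VMP and 21406 in SU by Tag-seq and to 21327 and 45977 by RNA-seq. The RNA-seq sum was carried by the collagens, with log2 ratios of -1.27 for Col1a1 and -1.94 for Col3a1. Pdgfra was at 0.77, Dcn at -0.07 and Twist2 at -0.16. Of the 3 endothelial markers with an ID, 3 were called higher in VMP by Tag-seq and 1 by RNA-seq. The IDs come from the study's DE tables, so the marker counts lean toward called genes. By Tag-seq, 44.6% of all IDs with a symbol were called higher in SU and 32.6% higher in VMP. By RNA-seq these shares were 30.2% and 21.7%. Over all transcripts, 13.2% were called higher in SU by Tag-seq and 12% by RNA-seq. Only 2 of 7 smooth muscle markers had an ID, and of these Lmod1 was called higher in SU by Tag-seq (-1.87) and Des higher in VMP by RNA-seq (2.12), so the smooth muscle of SU could hardly be checked. The part of these cell types in the members' differences was not tested.

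The order of the regulators depended on the assay. In SU tissue by Tag-seq it was Myog, Myod1, Chrna1 and Myf5, with no overlap between the counting intervals of neighbours. In the SU RNA-seq library, where counts were divided by transcript length, Myog had 809 counts per kb, Chrna1 160 (142 to 180), Myf5 127 (112 to 143) and Myod1 34.9. The intervals of Chrna1 and Myf5 overlapped there, and Myog above and Myod1 below stood apart. In VMP tissue, Myog was first, Myf5 and Myod1 overlapped at 10.3 to 15.5 and 7.72 to 12.2 CPM, and Chrna1 was last. In VMP RNA-seq, Myog with 13.8 counts per kb (8.44 to 21.3) and Chrna1 with 5.43 (2.60 to 9.99) overlapped.

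Myod1 and Myf5 thus exchanged places in SU. Among the 3 regulators, Myod1 made up 20.9% in Tag-seq and 3.60% in RNA-seq, whereas Myf5 made up 5.36% and 13.03%. In CPM, Myod1 was 5.28 times higher in Tag-seq than in RNA-seq, and Myf5 2.82 times higher in RNA-seq than in Tag-seq. Myog was at nearly the same CPM in both, 181 and 167. These CPM are not corrected for length, which enters RNA-seq counts and not Tag-seq counts. The folds therefore compare unlike units and do not measure a change of transcript level. The assays differ in chemistry, in the region of the transcript that is read and in dissociation, and the shares of these in the exchange cannot be told apart.

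Summed over the 66 SU cells, the order differed from that in both bulk assays. Myf5 stood first with 658 reads per kb, followed by Chrna1 with 454, Myod1 with 65.2 and Myog with 28.3 (20.3 to 38.4), and no intervals of neighbours overlapped. The order rests on few cells, since for Myf5 3 of them held 57.8% of the reads and for Myod1 SU cell 32 held 42.5%. A level was also taken without the cells of at least 10 reads of the gene. It was 2.99 CPM per kb for Chrna1, 0.458 for Myog, 0.257 for Myod1 and 0.218 for Myf5. The cells left out differed by gene and were picked by its own reads. They held 98.8% of the Myf5 reads, 83.5% of Myod1, 75.4% of Chrna1 and 29.3% of Myog. What is left therefore depends on the limit, and its order does not rank the genes. Over all SU cells summed, Myf5 made up 87.6% of the 3 regulators, Myod1 8.68% and Myog 3.77%. The level of Myog was 167 CPM in SU RNA-seq and 0.927 CPM in the summed SU cells, a 180-fold lower level in the captured cells. Myf5 had 37.1 and 30.6 CPM there, Chrna1 42.1 and 18.9, and Myod1 9.70 and 2.87. In VMP, Myog had 4.55 CPM in RNA-seq and 0.0335 CPM in the summed cells, where it had 1 read. The cause of the Myog difference was not tested. Per the labels, the bulk samples were taken before the viability step of the single-cell protocol, and which cells the chip took up was not measured.

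**Figure D2:**
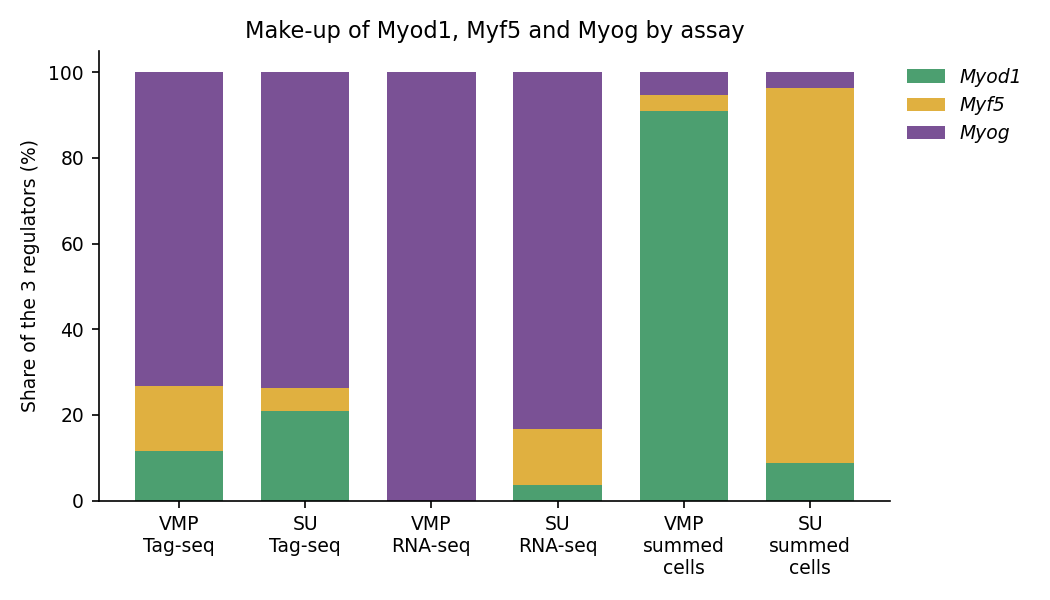
Share of Myod1, Myf5 and Myog in their sum, in percent, for each tissue and assay; Tag-seq shares are of counts, and those of RNA-seq and summed cells of counts per kb of transcript. Myog makes up 73.8% in SU Tag-seq and 3.77% in the summed SU cells, where Myf5 makes up 87.6%; the VMP bars of RNA-seq and cells rest on 20 Myog counts and on 23 Myod1 reads.

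The single-cell libraries came from a Fluidigm C1 chip, with full-length cDNA and no molecular identifiers, and held 199849 to 1488320 counts on genes, with medians of 614376 in VMP and 631066 in SU. Their values are reads per cell. Cells of a tissue came from 1 pool and are not replicates, so no test was made between tissues. Across the 49 VMP cells, Myf5 and Myog had 1 read each in all, and Myod1 had 23 reads, 12 of them in VMP cell 78. Across the 66 SU cells there were 1352 reads of Myf5, 127 of Myod1 and 41 of Myog. The summed log2 ratios of VMP over SU were -9.25 (-15.1 to -7.35) for Myf5, -1.87 (-2.61 to -1.25) for Myod1 and -4.22 (-10.1 to -2.23) for Myog. Without SU cell 32, which held 54 reads of Myod1, the Myod1 ratio was -1.09, and without VMP cell 78 it was -2.84.

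Myf5 was carried by a small set of SU cells. At least 10 reads were found in 11 of 66 SU cells, 16.7% (exact Clopper-Pearson interval 8.62 to 27.9%), and in 0 of 49 VMP cells, which allows up to 7.25%. These 11 cells held 98.8% of the SU reads of Myf5, with 351, 282, 149, 127, 126, 91, 63, 58, 51, 24 and 14 reads, while 13 further SU cells had 1 or 2 reads and 42 had none. The distribution was therefore split, with no cell between 2 and 14 reads. With each cell thinned to 199849 counts, 17 SU cells and 1 VMP cell kept a read, against 24 and 1 at full depth.

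Myod1 had at least 1 read in 18 SU and 8 VMP cells and at least 10 in 4 SU cells, with 54, 21, 21 and 10 reads, and in 1 VMP cell. Myog had reads in 9 SU cells and 1 VMP cell, and the highest value, 12 reads, was in SU cell 11. Cells with a read after thinning were 10 in SU and 5 in VMP for Myod1, and 5 and 0 for Myog.

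Chrna1 was unlike the 3 regulators in the cells. At least 1 read was found in 47 of 49 VMP cells, 95.9% (86.02 to 99.5%), and in 57 of 66 SU cells, 86.4% (75.7 to 93.6%), and the median was 4 reads per cell in each tissue. After thinning, 38 VMP and 45 SU cells kept a read. Its summed level was 11.9 CPM in VMP and 18.9 in SU, a log2 ratio of -0.66 (-0.85 to -0.48), which was -0.31 without SU cell 11 and -0.92 without VMP cell 26. Outside the cells with at least 10 reads, the level was 6.31 CPM in VMP and 5.50 in SU. The VMP cells thus showed Chrna1 at 11.9 CPM where the VMP bulk library showed 2.27, and the source of the low reads was not tested. At least 10 reads were present in 9 VMP cells, up to 65 in VMP cell 26, and in 10 SU cells, where SU cells 11, 75 and 8 with 188, 184 and 112 reads held 57.9% of the total.

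**Figure D3:**
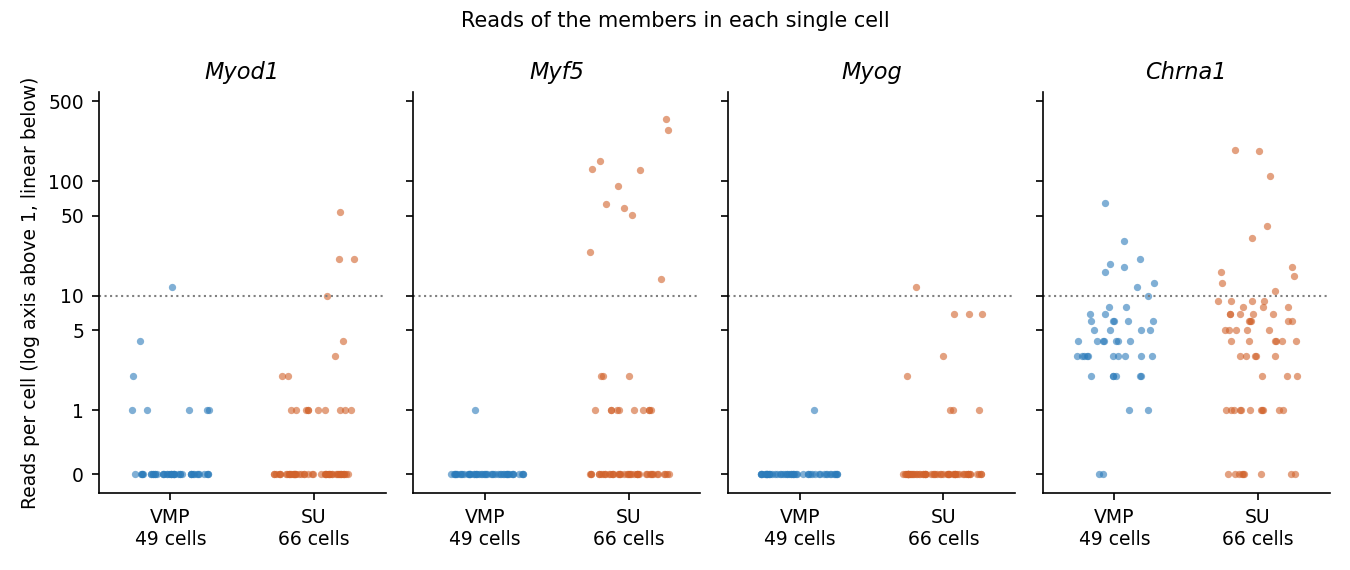
Reads of each member per single cell, on an axis that is linear below 1 and logarithmic above; each point is a cell, 49 from VMP and 66 from SU, and the dotted line is at 10 reads. Myf5 splits the SU cells into 11 at or above 14 reads and the rest at 2 or fewer, whereas Chrna1 has a median of 4 reads in both tissues.

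Members coincided in few cells. At least 1 read of 2 or more members was found in 34 SU and 10 VMP cells, all of them with Chrna1 as 1 of the members, and at least 10 reads of 2 or more members in 4 SU cells and 0 VMP cells. SU cell 8 had 126 reads of Myf5, 112 of Chrna1 and 4 of Myod1. SU cell 75 had 58 of Myf5, 184 of Chrna1 and 10 of Myod1. SU cell 18 had 21 of Myod1, 14 of Myf5 and 16 of Chrna1. SU cell 11, by contrast, had 12 of Myog and 188 of Chrna1 with none of Myod1 or Myf5. At least 5 reads were present in 4 of the 66 SU cells for Myog, 4 for Myod1 and 11 for Myf5. Of the 66 SU cells, 0 had at least 5 reads of Myog together with at least 5 of Myod1 or of Myf5. With so few cells, this 0 cannot show whether the genes keep apart.

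A panel of 10 markers of the skeletal muscle lineage was used, of which 9 had an ID (not Pax7) and 4 are the members. The other 5 were Pax3, a progenitor transcription factor, Cdh15, the M-cadherin of myoblasts and satellite cells, Fgfr4, Myh3, the embryonic myosin heavy chain, and Mymk, the fusogen myomaker. At least 5 reads of 1 or more of them were found in 13 of 66 SU cells and 1 of 49 VMP cells. Of the 11 SU cells with at least 10 reads of Myf5, 6 were among these 13, as was 1 of the 4 with at least 10 reads of Myod1 and 4 of the 10 with at least 10 of Chrna1. Of the 9 VMP cells with at least 10 reads of Chrna1, 0 carried such a marker.

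The cells described here were chosen after their values were seen: the cell with the most reads of each member, and SU cells with at least 10 reads of 1 member and either 10 of another or 5 of a further marker, 11 cells in all. SU cell 52, with 282 reads of Myf5, had 38 reads of Met, the receptor of migrating muscle progenitors, 15 of Fgfr4, 15 of Cdh15, 14 of Rapsn and 11 of Sgca. SU cell 58 had 24 reads of Myf5, 88 of Pax3, 59 of the myotomal factor Dmrt2, 81 of the Notch target Hey1, 582 of Rapsn, which clusters acetylcholine receptors, and 62 of Sgca. Neither had a read of Myod1 or Myog, and their other genes differed in part. SU cell 52 had 0 reads of Pax3 and Dmrt2 and 54 of the endothelial Emcn, and SU cell 58 had 0 of Met and Fgfr4.

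SU cell 11, the highest in Myog and Chrna1, had 387 reads of the slow troponin Tnni1, 45 of Cdh15, 28 of the sarcoglycan Sgca and 5 of Myh3, and at least 5 reads of 3 of 15 contractile genes, with Myl1, Acta1 and Ckm at 0. By that limit, 27 SU cells had 0 of the 15 genes, 30 had 1, 4 had 2, 4 had 3 and 1 had 9. No VMP cell had more than 2. SU cell 18 carried 6 of the 9 lineage markers with an ID, members included, and at least 5 reads of 9 of the 15 contractile genes. Among them were 208 reads of Actc1, the cardiac actin of embryonic muscle, 79 of Mylpf, 42 of Mymk, 30 of Myh3 and 16 of Ckm, the muscle creatine kinase. Actc1 was not particular to this cell, since 33 SU cells had a read and 14 had at least 10. Its highest SU level was 952 CPM, against 301 here, and that of Ckm 46.2 against 23.1. Mylpf, Mymk and Myh3 were highest in SU cell 18. This cell also held 9 of Pax3 and 36 of Met, and with 10057 genes it had the most genes of all 115 cells. Whether 1 or more cells sat in that chamber was not tested.

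**Figure D4:**
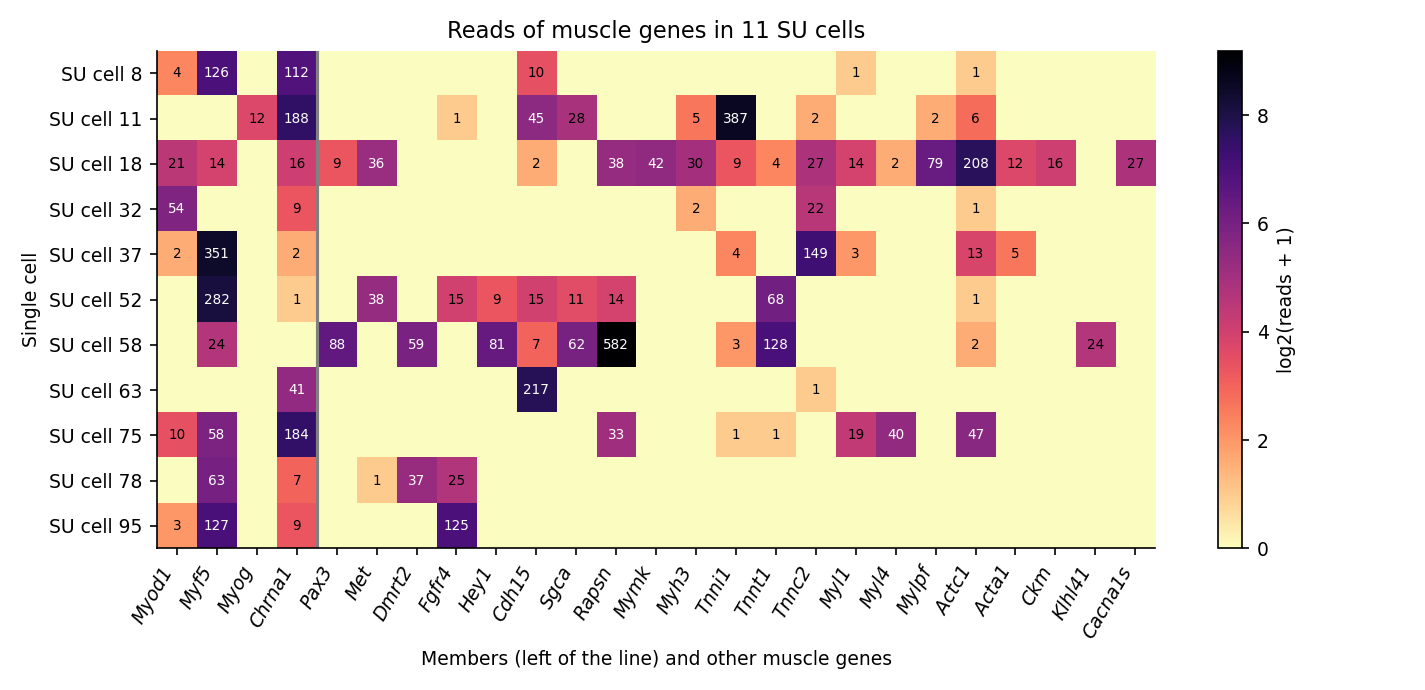
Reads of the members and of 21 other muscle genes in the 11 SU cells named by the rule in the text, with the colour on a log2(reads + 1) scale and the read number printed where above 0. SU cells 52 and 58 hold Myf5 with different progenitor genes, SU cell 18 holds contractile genes with Myod1, Myf5 and Chrna1, and SU cell 11 is the cell with Myog at 12 reads.

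SU cell 37 had the most Myf5 reads, 351, and 1 of the 9 lineage markers, with 149 reads of the fast troponin Tnnc2 and 13 of Actc1. Tnnc2 was not particular to such cells, since its summed level was 121 CPM in VMP cells and 45.6 in SU cells. SU cell 32, with 54 reads of Myod1, had 22 of Tnnc2. SU cell 95 had 127 of Myf5 with 125 of Fgfr4, and SU cell 78 had 63 of Myf5 with 25 of Fgfr4 and 37 of Dmrt2. Fgfr4 stood at 153 and 31.4 CPM in these cells, below its highest SU level of 322 CPM. SU cell 78 also had 110 reads of Cdh5 and 1095 of Pdgfra, and SU cell 37 had 95 of Kdr, from the endothelial list. SU cell 63 had 41 reads of Chrna1 and 217 of Cdh15, beside 1959 of Cdh5 and 1638 of Emcn, both endothelial genes. The fibroblast collagen Col1a1 was present in all 115 cells, and among the cells named here it ranged from 678 reads in SU cell 52 to 10854 in SU cell 32, so none of them was without mesenchymal transcripts.

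Other muscle genes were followed in lists of which 61 of 113 symbols had an ID. The IDs come from the tables of DE transcripts of these libraries, so the counts lean toward called genes. Of all IDs with a symbol, 44.6% were called higher in SU and 32.6% higher in VMP by Tag-seq, and 30.2% and 21.7% by RNA-seq, which the list counts below stand beside, and over all transcripts 13.2% and 12% were called higher in SU. Of 16 contractile and metabolic muscle genes, 14 were called higher in SU and 1 higher in VMP by Tag-seq (median log2 ratio -2.43, against 0.01 over all transcripts), and 8 and 0 by RNA-seq (median -2.17, or -1.83 with genes at 0 counts placed at their bound, against 0.03 over all). Myh3 had 3245 counts in VMP and 13879 in SU by Tag-seq, with ratios of -2.15 and, in RNA-seq, -2.72. Myl1 (-2.39 and -5.23), Actc1 (-1.83 and -5.51), Tnni1 (-2.08 and -2.81), Mylpf (-2.67 and -1.63) and Klhl41 (-2.36 and -3.24) were also called in both assays, as was Ckm, which had 0 RNA-seq counts in VMP and 56 in SU.

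Genes of myoblast adhesion and fusion had the lowest RNA-seq median of the 5 muscle lists. Of 6 with an ID, 4 were called higher in SU by Tag-seq, and 5 by RNA-seq with 1 called higher in VMP. Medians were -2.50 and -6.50, the latter -3.92 with genes at 0 placed at their bound. Cdh15 (92 and 495 Tag-seq counts in VMP and SU, 0 and 207 in RNA-seq), Mymk (19 and 108, 0 and 72), Cav3 (65 and 1184, 0 and 53) and Sgca (100 and 881, 0 and 101) were called in both. Like Myod1 and Myf5, they had counts in VMP Tag-seq and 0 in VMP RNA-seq, a pattern also shown by Ckm, Myoz2, Dmrt2 and Chrnd, by the epithelial Krt5, Krt8, Krt15 and Krt18 and by the leukocyte gene Laptm5. Boc, a co-receptor that favours myogenesis, was the one called higher in VMP in RNA-seq (1.58), with 0.71 in Tag-seq.

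At the neuromuscular junction, Chrnd, the delta subunit that joins Chrna1 in the receptor, had 39 Tag-seq counts in VMP and 447 in SU (-3.55, called) but 0 and 2 counts in RNA-seq. Rapsn was called in both assays (-2.08 and -3.39). The other 9 junction genes on the list had no ID.

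Upstream of the regulators, the progenitor list had 7 genes with an ID, of which 4 were called higher in SU and 2 higher in VMP by Tag-seq, and 3 and 0 by RNA-seq. Medians were -3.14 by Tag-seq over 6 genes and -2.63 by RNA-seq, the latter -1.12 with the gene at 0 placed at its bound. Met (-3.88 and -4.64) and Fgfr4 (-2.41 and -5.88) were called in both. Pax3 had 0 Tag-seq counts in each tissue and 6 and 55 in RNA-seq.

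Among 12 partners and inhibitors of the regulators, 4 were called higher in SU and 1 higher in VMP by Tag-seq, and 10 and 0 by RNA-seq, with medians of -0.51 and -2.83. Id1, which binds E-proteins and keeps them from the myogenic factors, had ratios of -1.81 and -4.23, the Notch target Hes1 -1.79 and -3.98, and the myostatin antagonist follistatin (Fst) -1.76 and -4.23, all called in both. Mstn itself was called higher in SU by Tag-seq (-1.87) and had 0.00 in RNA-seq. Twist2, a mesenchymal inhibitor of Myod1, was the one called higher in VMP by Tag-seq (1.44). In the single cells, Id1 had reads in 61 and Hes1 in 66 of the 66 SU cells, against 15 for Fst. Id1 and Hes1 were thus not particular to SU cells with reads of the regulators.

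**Figure D5:**
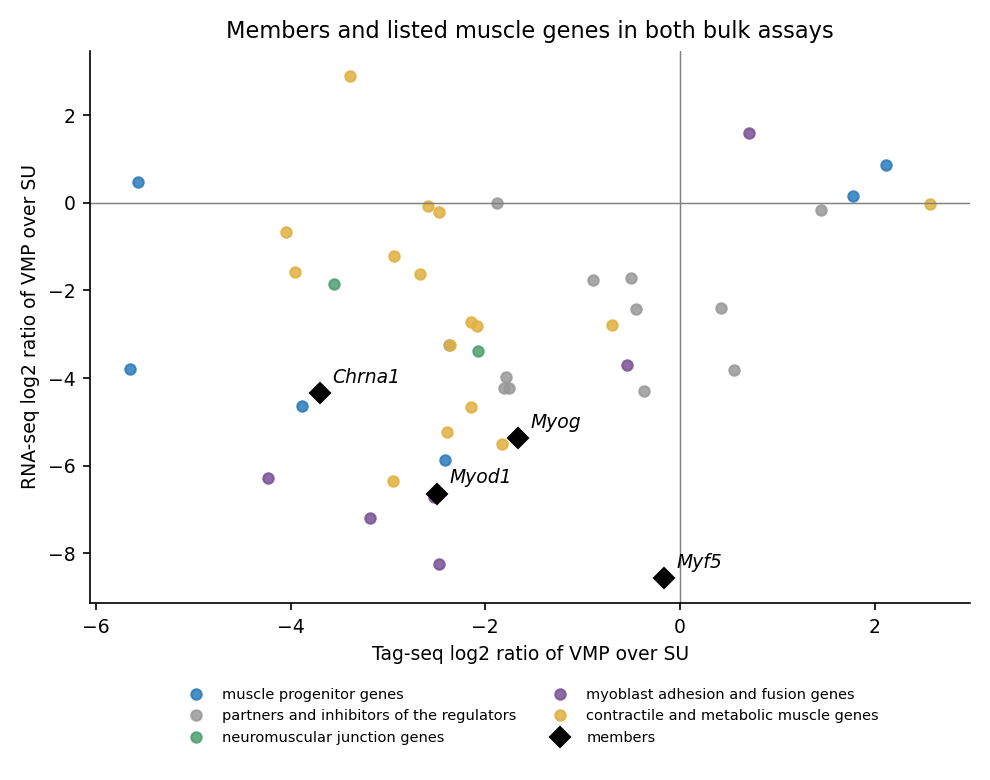
Log2 ratio of VMP over SU in Tag-seq (horizontal) and RNA-seq (vertical) for the members (diamonds) and the listed muscle genes with a ratio in both assays (dots, coloured by list); each point is a gene, and genes at 0 counts are drawn with a pseudocount of 0.5 counts. Myf5 lies at -0.16 and -8.56, close to the vertical line at 0, while Chrna1 lies at -3.70 and -4.35.

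The genes most like the summed members over the 115 single cells, by Pearson r of log2(CPM + 1) among 15631 genes with reads in at least 3 cells, were led by Cdh15 (r = 0.42, reads in 9 cells). Of the 10 highest, Sema4g (0.39), Cx3cl1 (0.38) and Pitpnm1 (0.38) also had a symbol and 6 had none. These cells share their pools and most have no reads of the gene ranked, and correlations of this size in sparse counts are given as a description only.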

How the data were processed

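Tag-seq, RNA-seq and scRNA-seq of VMP and SU were grouped by the tissue and assay in the labels. The deposited values are raw counts, the reads assigned to each Ensembl gene. For Tag-seq the authors trimmed reads to the tag, aligned them with Bowtie2 and dropped non-unique alignments. For the other assays the submitters' processing notes list Trimmomatic 0.33, TopHat, Picard 1.128, SAMtools and HTSeq, and Rnor_6.0 throughout. Spike-in rows stayed out of library sizes. The number of cells behind each RNA-seq library is stated differently in the results and the methods of the study and is not settled here.

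DE calls used a reimplementation of the NOISeq scheme without replicates (TMM scaling, a CPM over 1 in either library, noise from 5 simulations per tissue at 20% depth with a variability of 0.02, zeros replaced by 0.5, q of at least 0.9) in Python 3.11.15 with numpy 2.4.6, scipy 1.17.1 and pandas 2.3.3. Log2 ratios used a pseudocount of 0.5 counts. Poisson and Clopper-Pearson intervals are exact, those of ratios conditional binomial. Fits with the assay as a block were made in R 4.3.3 with edgeR 4.0.16 or DESeq2 1.42.0. The calls and fits were tested on simulated data. Symbols, positions and transcript lengths came from the study's DE tables, used in part, which pair 2995 IDs with symbols. No doublets were removed, and all deposited cells were used. The members, lists and tests were chosen with earlier results of these data known. The text names the members, listed genes called in both assays in 1 direction or read in cells with several members, and the 10 genes most like the members over cells; other listed genes and cells were added after their values were seen. Genes without an ID were not analysed here, and 1 listed gene is not reported here by name. Figures were drawn with matplotlib 3.10.9.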

Additional observations from a re-analysis of the deposited data

How the results depend on the processing

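No paired analysis was possible because no samples share a replicate number: each tissue had 1 library per bulk assay, and the cell numbers are chamber names, 33 of which occur in both tissues. The assay block sets VMP against SU within each assay and pairs no animals. The alternatives were other scalings, pseudocounts of 1 and 5, stricter or absent call filters, thinning, removal of cells outside 3 MADs and removal of the cell with the most reads. None reversed a direction, and of the alternatives to the summary results 64 stayed within the counting interval of a ratio, or within 1.5 times a count, and 12 moved. These limits are wide where reads are few. With a pseudocount of 5, the RNA-seq ratio was -3.40 for Myod1 and -5.26 for Myf5, whose VMP counts are 0. Cells with reads of at least 2 members, 10 in VMP and 34 in SU, became 1 and 11 at 5 reads of each, 0 and 4 at 10 reads of each (a limit chosen after seeing the data), and 4 and 18 after thinning, by the construction of these limits. Without the cell with the most reads, the summed ratio of Myod1 was -2.84 (VMP cell left out) and -1.09 (SU cell left out), and that of Chrna1 -0.92 and -0.31. Leaving out the VMP cell with the single read gave -10.8 for Myf5 and -5.79 for Myog, against 0 VMP reads, and leaving out the top SU cell -8.85 and -3.74. By NOISeq, 3 members were called in both assays. At q of at least 0.95, 2 were called in Tag-seq. The joint fits over both assays called 3 by edgeR and 2 by DESeq2. Scaling by total count moved the median log2 ratio of all transcripts from 0.01 to 0.12 in Tag-seq and from 0.03 to 0.24 in RNA-seq. Depth limits the VMP RNA-seq counts of 0, and the lack of replicate libraries limits every bulk comparison.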
